A study of Mus musculus with 6 samples.

Results

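The genes described here are the 5 wound and hyperproliferation keratins *Krt14*, *Krt16*, *Krt17*, *Krt6a* and *Krt6b*, found by symbol among the 17554 genes of the deposited table, which lists 51 keratins in all. They were chosen from the control against mutant values of these same samples, so their genotype differences are given below as a description, with no test. The samples were the corneal epithelial layers of 6 mice of the C57BL/6 strain at 2 months of age, 3 control mice labelled WT and 3 mutant mice labelled Rela-/-, which the study made as *Krt14-Cre; Rela f/f*. In the mutant mice a Cre recombinase under a keratin 14 promoter removes the floxed part of *Rela*, the gene of the RelA subunit of NF-κB. The labels do not give whether the control mice carried floxed alleles or Cre, and the sources used here do not give whether the transgene is transcribed with any *Krt14* sequence. The samples of a group are independent biological samples per the study's methods. RNA of the whole layer was sequenced in bulk, so that fewer cells of a type and less RNA per cell cannot be told apart.

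Keratins build the intermediate filaments of epithelial cells, and a filament needs an acidic type I and a basic type II keratin in equal amounts. The basal cells of stratified epithelia use KRT5, a type II keratin, with KRT14, a type I keratin, and the corneal epithelium adds the type I keratin KRT12. KRT6A and KRT6B, which are type II, and KRT16 and KRT17, which are type I, are known from the skin, where keratinocytes at a wound edge, in psoriasis and in other hyperproliferative states switch them on.

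The genes are close copies of each other, which matters for how 50-base reads are divided among them. In GENCODE M21 on GRCm38, the type I genes lie on the minus strand of chromosome 11, with *Krt14* at chr11:100203162-100207548, *Krt16* at chr11:100246091-100248902 and *Krt17* at chr11:100256217-100261029. The type II genes lie on the minus strand of chromosome 15, with *Krt6b* at chr15:101676023-101680287, *Krt6a* at chr15:101689910-101694307 and the basal keratin gene *Krt5* beside them at chr15:101707070-101712898. Exons 2 to 6 of the type I genes have equal lengths, and over these 749 coding bases *Krt14* was 90.7% identical to *Krt17* and 81.8% to *Krt16*, while *Krt16* and *Krt17* were 80.2% identical. Over the 919 bases of exons 2 to 8, *Krt6a* and *Krt6b* were 97.6% identical and differed at 22 positions, against 84.8% between each of them and *Krt5*. The 60 coding bases of exon 5 at which the type I genes differ most are shown 5′ to 3′ on the coding strand, with capitals at the 26 positions where the genes are not all alike (chr11:100204463-100204522, chr11:100247141-100247200 and chr11:100257782-100257841, minus strand, in the order printed).
Krt14: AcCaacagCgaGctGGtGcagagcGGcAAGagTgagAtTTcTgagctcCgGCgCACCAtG
Krt16: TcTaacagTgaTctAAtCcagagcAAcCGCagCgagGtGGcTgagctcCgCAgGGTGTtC
Krt17: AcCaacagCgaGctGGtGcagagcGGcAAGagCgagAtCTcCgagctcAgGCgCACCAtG
The same choice for *Krt6a* and *Krt6b* fell in exon 4 and held 10 differing positions (chr15:101692484-101692543 and chr15:101678303-101678362, minus strand), printed the same way. Positions like these, of which others lie elsewhere in the transcripts, are those by which a read can be assigned to either gene.
Krt6a: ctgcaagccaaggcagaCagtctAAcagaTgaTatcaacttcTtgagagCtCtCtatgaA
Krt6b: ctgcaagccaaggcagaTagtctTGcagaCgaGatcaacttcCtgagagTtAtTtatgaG

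Of the 50-base windows of the *Krt6a* transcript, 43.6% also occur in *Krt6b*, 9.96% in *Gm5478*, 6.73% in *Krt5* and 3.63% in *Gm5414*. For *Krt6b*, 44.5% of windows occur in *Krt6a*, 9.33% in *Gm5478* and 6.36% in *Gm5414*. *Gm5478* and *Gm5414* are annotated as protein-coding genes. Sharing was lower in the type I genes, where 12.4% of the *Krt16* windows occur in *Krt14* and 0.396% in *Krt17*, and 3.66% of the *Krt17* windows occur in *Krt14*. Another 25.2% of the *Krt16* windows occur in *Gm11597*, annotated as an unprocessed pseudogene. The authors' counting assigns each shared read in part to every gene it matches, so the split between *Krt6a* and *Krt6b* is less certain than their sum. In the annotation deposited with the table, all 5 genes are placed in the intermediate filament, 4 of them, all but *Krt14*, in keratinization, and 1, *Krt6a*, in wound healing.

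The levels are given as FPKM, which allows for the length of a transcript and the depth of a library, so that genes can be set beside each other. Log2 fold changes, mutant over control, come from edgeR fitted to expected counts across the 12667 genes that passed its filter on low counts, all 5 genes among them, with the standard error after ±. Total expected counts per sample lay between 19492942 and 19733834. *Rela*, the targeted gene, had an FPKM of 33.4 to 36.5 in the controls and of 4.93 to 5.72 in the mutants. Over all genes tested the median log2 fold change was -0.00282. The markers of corneal epithelium led the table, with *Krt12* at a mean FPKM of 19690 in control and 18270 in mutant samples. *Muc5ac* (goblet cells), *Krt2* (epidermis), *Kera* (stroma) and *Kdr* (vessels) had at most 3 counts in every sample. Other markers of such cell types were present, with mean FPKM in control and mutant samples of 1329 and 1004 for *Krt13* (conjunctiva). These means were 297 and 185.5 for *Dsg1a* (epidermis) and 0.057 and 1.05 for *Dcn* (stroma), and sums of each list are given below.

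*Krt14*, the type I partner of *Krt5*, had an FPKM of 203, 149.8 and 181 in the controls and of 2204, 1579.6 and 1474 in the mutants. The groups lay far apart, with the lowest mutant value 7.26 times the highest control value. The mean was 178 ± 27 in control and 1753 ± 394 in mutant mice (SD, n = 3 each), which moved *Krt14* from rank 311 to rank 21 among all genes by mean FPKM. Its log2 fold change was 3.32 ± 0.18, with a 95% interval from 2.92 to 3.72. Leaving out any sample kept it between 3.1 and 3.44.

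*Krt16*, the type I keratin that rises at the margin of skin wounds, had an FPKM of 14.4, 10.4 and 99.2 in the controls and of 1841, 1369 and 1144 in the mutants. Control 3 stood apart at 7.99 times the mean of the other 2 controls, yet the lowest mutant value was 11.5 times that of control 3. The mean was 41 ± 50 in control and 1451 ± 356 in mutant mice (SD, n = 3 each). The log2 fold change was 5.12 ± 0.80 with all samples and 6.88 without control 3, and the ratio of mean FPKM was 35.1 with control 3 and 117 without it. This was the least certain size among the genes described here and, with or without control 3, the largest.

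Few other genes had so large a step up in control 3. Among all genes tested with at least 50 counts in that sample, 5 were at least 4 times as high in control 3 as in either other control, and 2 of these, *Krt16* and *Alox12b*, a lipoxygenase of the epidermal barrier, were higher still in every mutant sample. Smaller steps in control 3 were seen too, with control FPKM of 15.3, 10.9 and 50.6 for *Sprr1a* and of 22.1, 18.5 and 50.3 for *Cnfn*. The FPKM of *Alox12b* was 0.43, 0.33 and 1.74 in the controls and of 8.86, 4.33 and 6.73 in the mutants.

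*Krt17*, a type I keratin of hair follicles, glands and wounded epidermis, was the lowest of the group, with an FPKM of 4.33, 4.18 and 3.58 in the controls and of 119, 34.9 and 42.2 in the mutants. Every mutant sample was at least 8.06 times every control sample. Mutant 1 stood apart among the mutants at 3.09 times the mean of the other 2. The mean was 4.03 ± 0.40 in control and 65.4 ± 46.6 in mutant mice (SD, n = 3 each). Its log2 fold change of 4.02 ± 0.46 became 3.25 without mutant 1, and the ratio of mean FPKM went from 16.2 to 9.57. At its highest it still stood at rank 989 of all genes by mean FPKM in the mutant mice.

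The type II genes behaved otherwise. *Krt6a* was already among the most abundant transcripts of the control samples, with an FPKM of 2732, 2471 and 2861, and was 3919, 3916.5 and 3661 in the mutants. The groups did not overlap, but the difference was small, from a mean of 2688 ± 199 to 3832 ± 148 (SD, n = 3 each). Its log2 fold change was 0.51 ± 0.085, and it kept between 0.44 and 0.57 when any sample was left out.

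*Krt6b* had an FPKM of 3191, 2927 and 3614 in the controls and of 4207, 3987 and 3436 in the mutants. Mutant 3 was below control 3, so the groups overlapped. Its mean was 3244 ± 346 in control and 3877 ± 397 in mutant mice (SD, n = 3 each), and its log2 fold change was 0.25 ± 0.11, with a 95% interval from 0.0040 to 0.50. With the counts of *Krt6a* and *Krt6b* summed, to set aside how reads were divided between these 2 genes alone, the log2 fold change of the pair was 0.38.

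**Figure D1:**
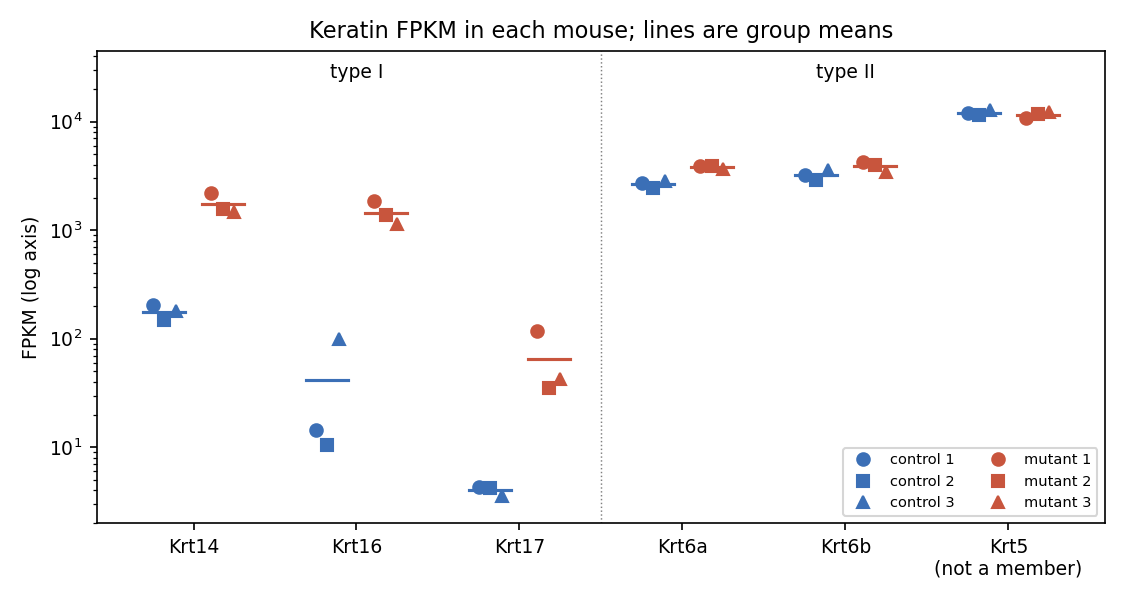
FPKM of the 5 genes and of *Krt5* in each mouse on a log axis, with controls in blue, mutants in red, a marker shape per mouse number and a line at each group mean. *Krt14*, *Krt16* and *Krt17* form separate bands for control and mutant mice, with control 3 of *Krt16* at 99.2 and mutant 1 of *Krt17* at 119, while the bands of *Krt6a*, *Krt6b* and *Krt5* lie near or over each other.

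Under the thresholds of the study (adjusted p no higher than 0.001 and fold no lower than 2), 2 of the 5 genes were called higher (*Krt14* and *Krt17*), where 1.31% of all genes tested were. At an adjusted p under 0.05 alone, 4 of the 5 were called higher, all but *Krt6b*, against 7.82% of all genes tested. The same 4 had every mutant FPKM above every control FPKM, as 17.5% of all genes tested did. Because the genes were chosen from these differences, nothing is read from the counts.

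Within the group, the order of mean levels was the same in both genotypes, and some neighbours in it drew together. In the control mice it was *Krt6b*, *Krt6a*, *Krt14*, *Krt16* and *Krt17*, and no neighbours overlapped in range. In the mutant mice *Krt6b* and *Krt6a* overlapped, with *Krt6b* higher in 2 of 3 mice, and so did *Krt14* and *Krt16*, with *Krt14* higher in 3 of 3 mice. The ratio of *Krt6a* to *Krt6b* was 0.856, 0.844 and 0.792 in the controls and 0.931, 0.982 and 1.07 in the mutants.

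The mice of a genotype also differed from each other. Mutant 1 was the highest mutant sample for 5 of the 5 genes, though for *Krt6a* by less than 3 FPKM, and control 2 was the lowest control sample for 4 of them. For control 2 the share over all genes was not taken, so nothing is read from that count. *Krt6a* and *Krt6b* share reads and are not separate cases. Mutant 1 was the highest of the mutants for 37.6% of all genes tested and for 58.1% of the 991 genes higher at an adjusted p under 0.05. That sample also had the lowest summed FPKM of the corneal epithelium markers (42120, against 47600 and 47520 in the other mutants) and the highest of the immune cell markers (177, against 109 and 92.5) and stromal keratocyte markers (3.83, against 2.21 and 1.02). The immune sum of mutant 1 was mostly *Itgam* (94.8) and *Ltf* (50.4), and *Cd68* and *Lyz2* were also highest there. *Ly6g* was lowest in mutant 1 (1.81, against 1.94 and 2.03), and *Cd74* was higher in mutant 3 (6.54, against 4.37). *Ptprc* was at an FPKM of at most 0.15 in every sample, so the sum is no measure of immune cells. The part of other cell types in the keratin values of mutant 1 was not tested.

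Ratios between the partners of a filament put the type I and type II genes side by side. *Krt14* over *Krt5* was 0.0168, 0.0130 and 0.0142 in the controls and 0.204, 0.135 and 0.121 in the mutants. *Krt16* over *Krt6a* was 0.00528, 0.00421 and 0.0347 in the controls and 0.470, 0.349 and 0.312 in the mutants. For *Krt17* over *Krt6b*, the ratio was 0.00136, 0.00143 and 0.000991 in the controls and 0.0283, 0.00875 and 0.0123 in the mutants. In all 3 pairs the ranges of the genotypes were separate, and in all 6 mice the type I transcript remained below its type II partner.

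**Figure D2:**
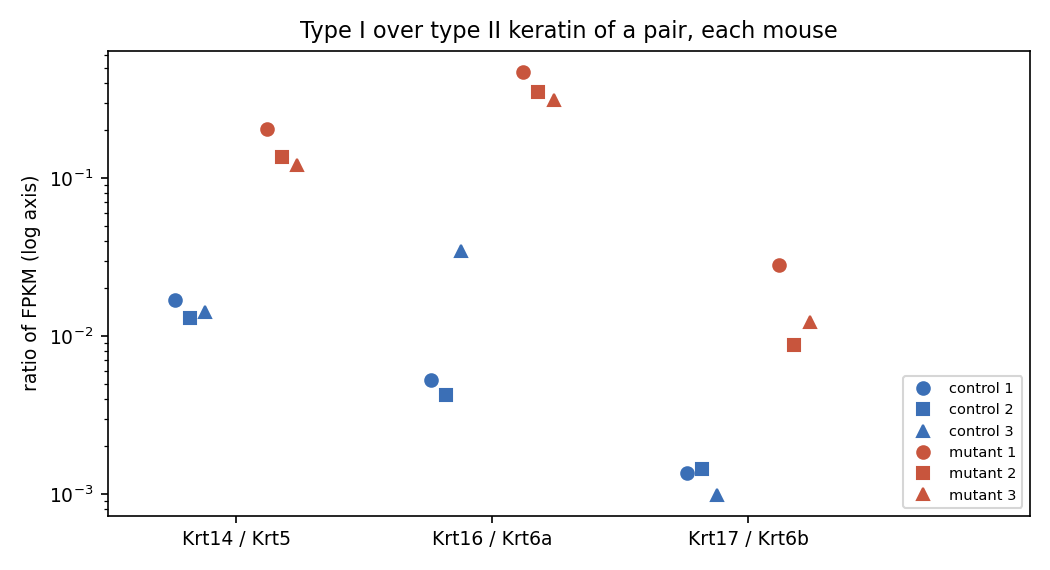
Ratio of type I to type II FPKM for *Krt14* over *Krt5*, *Krt16* over *Krt6a* and *Krt17* over *Krt6b* in each mouse, on a log axis (controls blue, mutants red, a marker shape per mouse number). Mutant mice lie above control mice for each pair, with *Krt16* over *Krt6a* reaching 0.470 in mutant 1 and 0.0347 in control 3.

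Beside these ratios, the sum of all type I keratins stayed near that of all type II keratins. The table lists 27 type I and 24 type II keratins, with *Krt18*, a type I gene on chromosome 15, counted as type I. Their summed FPKM had a type I to type II ratio of 1.17, 1.21 and 1.2 in the controls and of 1.19, 1.18 and 1.16 in the mutants. *Krt14*, *Krt16* and *Krt17* together held 1.02%, 0.772% and 1.19% of the type I FPKM in the controls and 18%, 12.5% and 11.6% in the mutants. *Krt12* held 88.3% ± 0.55 of it in control and 78.4% ± 4.2 in mutant mice (SD, n = 3 each). Shares of a fixed sum move against each other, so the share of *Krt12* does not give its level, whose log2 fold change was -0.15 (95% interval -0.33 to 0.032, edgeR adjusted p = 0.26).

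*Krt6a* and *Krt6b* together held 31.9%, 30.8% and 32.6% of the type II FPKM in the controls and 41.7%, 39.1% and 35.8% in the mutants. All 5 genes made up 15% ± 0.61 of keratin FPKM in control and 25.4% ± 3.1 in mutant mice (SD, n = 3 each). Of all expected counts of a sample, 1.24% to 1.5% fell on the 5 genes in the control mice and 2.02% to 2.49% in the mutant mice.

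**Figure D3:**
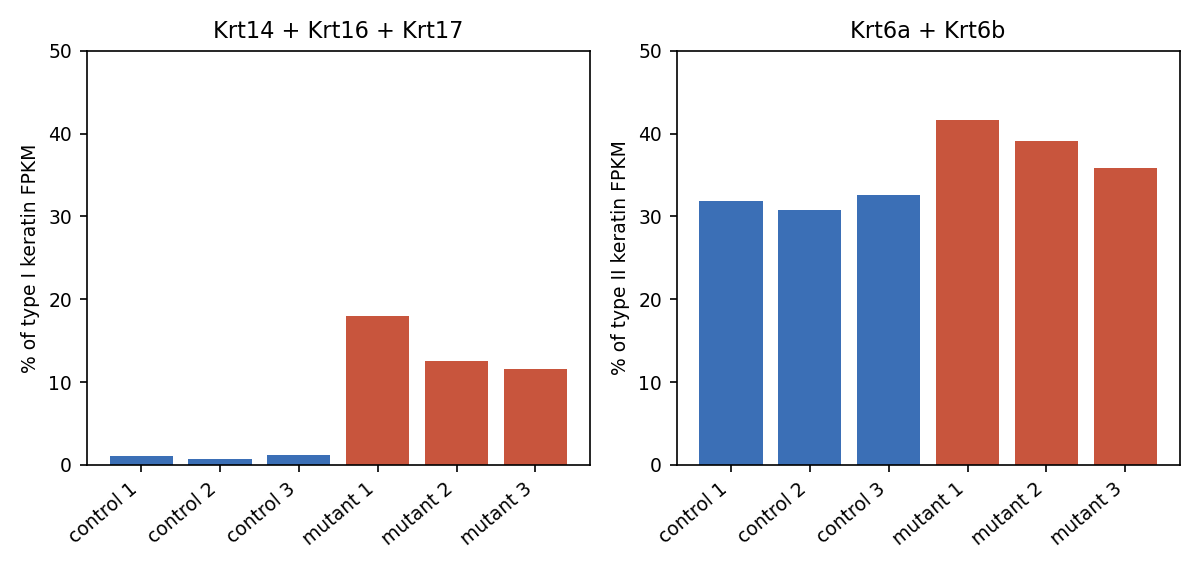
Share of type I keratin FPKM held by *Krt14*, *Krt16* and *Krt17* (left) and share of type II keratin FPKM held by *Krt6a* and *Krt6b* (right), as percent bars from 0 for each mouse. The type I share goes from at most 1.19% in control to 11.6% or more in mutant samples, and the type II share from at most 32.6% to 35.8% or more.

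The other keratins, which were not chosen for the group, were tested. Of the 46 others listed, 18 had enough counts, and 5 passed an adjusted p of 0.05 in the edgeR test. Of these, 2 were higher and 3 lower, where 7.82% of all genes tested were higher and 5.42% lower. *Krt13*, a type I keratin of mucosal epithelia, fell from a mean FPKM of 1329 to 1004 (log2 fold change -0.45 ± 0.097, edgeR adjusted p = 0.015). *Krt15*, a type I keratin of basal and limbal cells, fell from 947 to 649 (-0.55 ± 0.15, edgeR adjusted p = 0.039), and *Krt8*, a simple epithelial type II keratin, from 2.89 to 1.08 (-1.43 ± 0.29, edgeR adjusted p = 0.010). *Krt23* (0.77 ± 0.20, edgeR adjusted p = 0.036) and *Krt20* (1.39 ± 0.38, edgeR adjusted p = 0.039), both type I, rose from FPKM means of 7.17 and 0.157 to 12.2 and 0.423. *Krt8* passed under every alternative tried, and the other 4 calls were each lost when some samples were left out. With all samples kept, *Krt20* was also lost with DESeq2, with the replicate number as a block, without filtering and under a minimum of 10 counts per sample, *Krt23* with that block, and *Krt15* with limma on log2(FPKM + 1). The number of other keratins that passed was 1 without control 3, 2 without control 1, control 2 or mutant 2, and 3 without mutant 3.

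None of the other tested keratins was as far above its controls as the type I genes described here, the highest being *Krt18*, at a log2 fold change of 1.42 ± 0.45 (edgeR adjusted p = 0.067) and an FPKM of at most 1.57. *Krt5*, the partner of *Krt14* and neighbour of *Krt6a*, was at an FPKM of 12077, 11549 and 12786 in the controls and of 10806, 11726 and 12189 in the mutants. Its log2 fold change was -0.073, with a 95% interval from -0.25 to 0.10 (edgeR adjusted p = 0.59). The remaining cluster neighbours were low. *Krt75*, beside *Krt6b*, had a log2 fold change of 0.52 ± 0.19 (edgeR adjusted p = 0.11) at a mean FPKM of 5.03 in control and 7.25 in mutant mice. *Krt42*, beside *Krt17*, had at most 2 counts in a control and 11 in a mutant sample, and *Krt9*, beside *Krt14*, had at most 1 count in any.

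**Figure D4:**
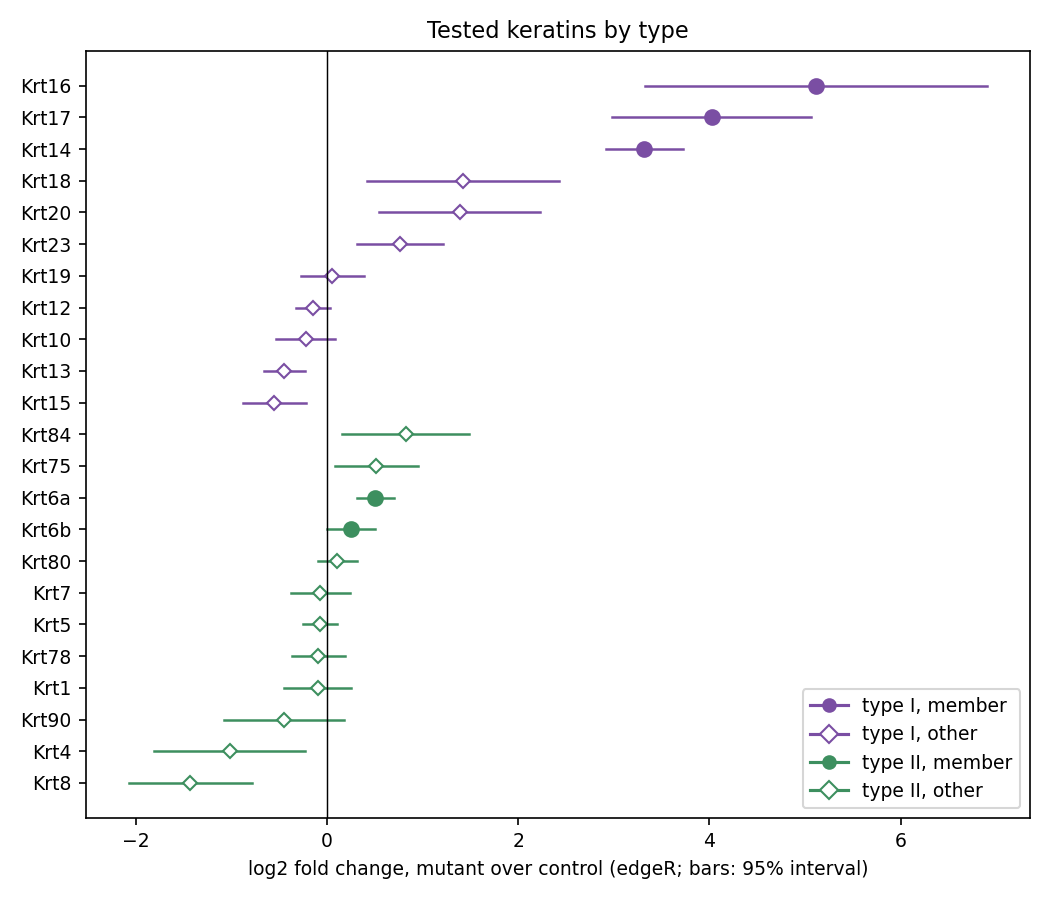
Log2 fold change, mutant over control, of the 23 tested keratins with 95% intervals from edgeR, grouped by type (type I purple, type II green), with filled circles for the 5 genes described here and open diamonds for the others. *Krt16*, *Krt17* and *Krt14* lie at 3.32 or more, *Krt6a* and *Krt6b* at 0.51 or less, and *Krt8* is lowest at -1.43.

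The genes whose values ran most like those of each keratin were found by the root mean square difference of log2 CPM, set to the mean of the controls, over all 6 samples. For *Krt16* the nearest was *Sprr1a*, a small proline-rich protein of the cornified envelope, at a difference of 0.45. Its FPKM was 15.3, 10.9 and 50.6 in the controls and of 1107, 998 and 1335 in the mutants, so control 3 was its highest control too. *Elovl4* (0.65) and *Serpina3n* (0.88) followed. Those nearest to *Krt17* were *Cpa4* (0.21), *Casp4* (0.25) and *Sh3kbp1* (0.36), of which *Cpa4* and *Casp4* had 0 counts in each control sample and were highest in mutant 1, with 41 and 64 counts. With no control counts, the distance of *Cpa4* and *Casp4* from *Krt17* is set by the prior count added before taking logs, so their place in this order is not a measured likeness. The prior count also enters the distance of *Elovl4* from *Krt16*, since *Elovl4* had 3, 2 and 14 counts in the controls.

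*Krt14* ran nearest to *Fxyd5* (0.17), *Ltbp1* (0.22) and *Mab21l3* (0.23), all at an FPKM of at most 6.52. At such low levels the prior count enters the distance too, and *Fxyd5* had an edgeR log2 fold change of 3.79. *Krt6a* ran nearest to the cytokine gene *Il1a* (0.033), the transglutaminase gene *Tgm1* (0.045) and *Smc2* (0.047), a condensin subunit. *Krt6b* ran nearest to *Veph1* (0.039), *Pgm3* (0.043) and *Fam89a* (0.047). Among the 5 keratins themselves, *Krt6a* and *Krt6b* differed by 0.19 and *Krt14* and *Krt17* by 0.52, while *Krt16* was at least 1.86 from each of the others.

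Genes that are known to act with these keratins were taken from 6 lists and tested in the same fit. The lists were chosen with earlier results of these data known, so their shares are a description and no independent support. Genes nearly absent from the controls passed the count filter only through the mutants, so they could only be called higher. Companions of the activated keratinocyte state moved most: of 28 tested, 26 rose and 0 fell (92.9% higher, against 7.82% of all genes tested), with a median log2 fold change of 3.05. Setting genes nearly absent from the controls to their lower bound could not move this median, since each bound lay above it. The deposited data held 32 of the companions. With at least 10 counts required in every sample, which removes genes absent from the controls, 14 rose. *Sprr1b*, another cornified envelope precursor, had 0 counts in each control and 2537 to 4880 in the mutants, at least 1326-fold above the level of 3 counts per library (edgeR adjusted p = 2.2e-05). *Mmp13*, a collagenase, was at least 148-fold higher on the same floor. *Plaur*, the urokinase receptor, rose by 4.82 ± 0.32 on the log2 scale. The alarmin gene *S100a8*, with at most 2 counts in a control sample, had 228 to 1858 in the mutants.

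Of the 26 companions that rose, mutant 1 was the highest mutant sample for 20 (76.9%, against 58.1% of all genes higher at an adjusted p under 0.05), and control 3 was the highest control sample for 13 (50%, against 32.7%). *Cd44*, a hyaluronan receptor, and *Gjb6*, a connexin, were the 2 that did not pass.

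For the cornified envelope, 16 of the 23 genes found in the deposited data were tested. Of these, 9 rose and 0 fell (56.2% higher, against 7.82% higher and 5.42% lower of all genes tested), with a median log2 fold change of 0.84. Under a minimum of 10 counts in every sample, 7 rose. *Sbsn* (suprabasin) rose in mean FPKM from 2.89 ± 0.29 to 55.6 ± 15.5, *Cnfn* (cornifelin) from 30.3 ± 17.4 to 271 ± 40, and *Klk7*, a peptidase of the shedding stratum corneum, from 0.123 ± 0.081 to 4.73 ± 1.69 (SD, n = 3 each). *Sprr3* was at least 24.4-fold higher on the floor of 3 counts. *Cnfn* was highest of the controls in control 3, at 50.3 against 22.1 and 18.5. Of the others that rose, *Cdsn* (corneodesmosin) went in mean FPKM from 16.6 to 72.35 (edgeR adjusted p = 0.0032). *Lce3a* went from 20.5 to 36.9 (edgeR adjusted p = 0.015, a call kept in 10 of 13 alternatives). The late epidermal genes *Lor* (loricrin) and *Flg* (filaggrin) were at an FPKM of at most 0.17 in every sample.

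Factors and receptors that are known to control these keratins were mixed. Of 39 tested genes, 16 were higher and 2 lower (41.0% and 5.13%, against 7.82% and 5.42% of all genes tested), with a median log2 fold change of 0.27. *Jun*, a subunit of AP-1, had a mean FPKM of 19.3 ± 1.3 in control mice and rose to 54.8 ± 7.5 (SD, n = 3 each, edgeR adjusted p = 4.9e-05). *Ifngr1*, a receptor chain for interferon gamma, rose from 32.0 ± 0.68 to 91.5 ± 15.3, and *Tgfa*, a ligand of the EGF receptor, from 8.66 ± 0.60 to 15.9 ± 1.6. *Fosl1*, another AP-1 subunit, had 0 counts in each control and 28 to 50 in the mutants, at least 13.9-fold above 3 counts, though 57.2% of its exon bases overlap *Ccdc85b*. The ligand genes *Egf* (-0.85, edgeR adjusted p = 0.014) and *Ereg* (-0.58, edgeR adjusted p = 0.042) fell, though 0 genes of the list were lower without control 1 or control 2 and 1 without control 3 or mutant 2. The receptor *Egfr* (-0.076, edgeR adjusted p = 0.57), the basal factor *Trp63* (0.037, edgeR adjusted p = 0.82) and the stress factor *Nfe2l2* (-0.090, edgeR adjusted p = 0.48) did not pass.

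Of 30 proliferation genes tested, 5 rose and 1 fell (16.7% and 3.33%, against 7.82% and 5.42% of all genes tested), with a median log2 fold change of 0.33. *Mcm4* (0.36 ± 0.086), a subunit of the replicative helicase, *Rrm2* (0.48 ± 0.11), of ribonucleotide reductase, and *Bub1* (0.56 ± 0.14), a mitotic kinase, were among those that rose, and the cyclin gene *Ccnd1* fell by 0.62 ± 0.16. These calls were weak: without control 2 or without mutant 3, 0 of the list were higher, and without control 1, control 2, control 3 or mutant 2, 0 were lower. *Mki67*, the usual marker of cycling cells, had a log2 fold change of 0.36 ± 0.13 (edgeR adjusted p = 0.089), and *Pcna* of 0.20 ± 0.11 (edgeR adjusted p = 0.28).

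Among genes of the basal layer, 7 of 18 tested rose and 1, *Krt15*, fell (38.9% and 5.56%, against 7.82% and 5.42% of all genes tested). Those that rose encode adhesion proteins of the basal surface and basal cells, with *Lamb3* (1.23 ± 0.084), a laminin chain, *Cdh3* (2.11 ± 0.19), P-cadherin, *Itga6* (0.73 ± 0.078) and *Itgb1* (0.63 ± 0.095) at the smallest adjusted p. Without control 3, 4 genes of the list were higher. The median of the list was 0.26, and *Krt5* and *Trp63*, which are also basal, did not pass.

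Of the proteins that anchor or bind keratin filaments, 3 of 27 tested genes rose and 1 fell, shares (11.1% and 3.7%) near those of all genes tested (7.82% and 5.42%), with a median log2 fold change of 0.088. *Dsg3*, a desmosomal cadherin of the lower layers, rose in mean FPKM from 153 ± 16 to 265 ± 13, and *Dsg1a*, of the upper layers, fell from 297 ± 21 to 185.5 ± 12.2 (SD, n = 3 each). *Sfn*, a 14-3-3 protein known to bind KRT17, rose by 0.72 ± 0.095 on the log2 scale and *Pkp3*, a desmosomal plaque protein, by 0.39 ± 0.076. The linker genes *Dsp* (0.17, edgeR adjusted p = 0.22) and *Plec* (0.16, edgeR adjusted p = 0.18) did not pass. Without mutant 1, 5 genes of this list were higher.

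**Figure D5:**
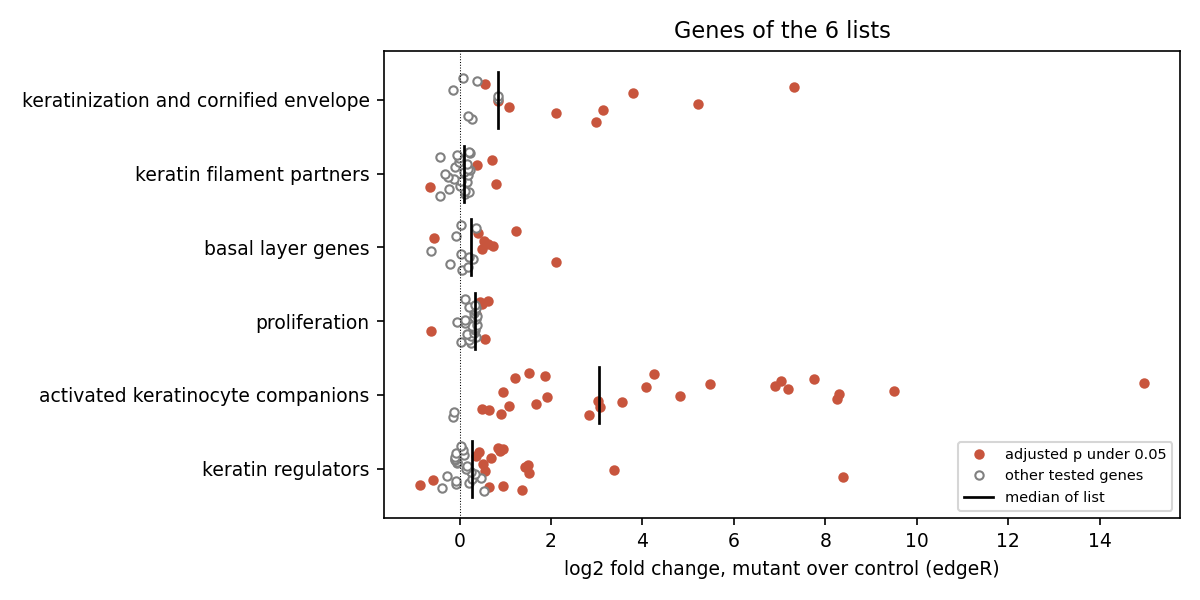
Log2 fold change, mutant over control, of each tested gene in the 6 lists (points red where the edgeR adjusted p is under 0.05, open otherwise), with a black line at the median of each list. The companions have the highest median, at 3.05, and the other lists lie between 0.088 and 0.84; fitted values of genes with 3 or fewer counts in every control, *Sprr1b* at 14.96 among them, depend on the prior count and are no measure of size.

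Markers of other cell types were read across the same samples in 10 lists. Summed FPKM of the stromal keratocyte list was 0.34 to 0.49 in the control and 1.02 to 3.83 in the mutants, and of its members only *Dcn* (decorin) had enough counts to be tested, at a mean FPKM of 0.057 in control and 1.05 in mutant mice (log2 fold change 4.17, edgeR adjusted p = 0.0051). The vessel list lay between 0.09 and 0.31 in all samples. Meibomian gland markers summed to 17.4 to 20.3 in the control and to 25.0 to 32.8 in the mutants, with *Elovl4* and *Soat1* passing, while *Krt79* and *Pparg* had at most 3 counts in every sample. Conjunctival markers summed to 2270 to 2590 in the control and 1930 to 2338 in the mutants, with 1 of 7 lower (*Krt13*) and 0 higher.

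Limbal markers summed to 1087 to 1222 in the control and to 675 to 1002 in the mutants, where *Krt15* and *Abcg2* fell and *Ifitm3* rose. Hair follicle markers, a tissue rich in KRT17, summed to 105.0 to 105.9 in the control and to 100.7 to 116 in the mutants, with 0 of 4 tested passing and *Krt27*, *Krt28*, *Krt35*, *Krt71* and *Krt79* at no more than 3 counts in any sample. Epidermal markers summed to 283 to 324 in the control and to 182 to 203 in the mutants, nearly all of it *Dsg1a*, and *Krt1* and *Krt10* had mean FPKM of 2.55 and 3.70 in control and of 2.39 and 3.18 in mutant mice. *Krtdap*, an epidermal differentiation gene too low to be tested, was listed at 0, 0 and 0.12 in the controls and at 1.44, 0.24 and 1.31 in the mutants. Immune markers summed to 96.8 to 114.5 in the control and to 92.5 to 177 in the mutants, with 0 of 5 passing in edgeR. Melanocyte markers stayed between 4.31 and 5.25 and Schwann cell markers between 45.1 and 57.0. Of the corneal epithelium markers, *Clu* rose and *Ptgr1* fell among 10 tested, and *Aldh3a1* was lower at an edgeR adjusted p of 0.047, a call kept in 2 of 13 alternatives. The part of other cell types in the keratin values was not tested.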

How the data were processed

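Bulk RNA-seq of the corneal epithelial layer of 3 control and 3 mutant mice at 2 months of age was analysed. The authors filtered single-end reads, aligned them with Bowtie2 2.2.5 and made the deposited expected counts with RSEM 1.2.12, which divides reads that fit several genes. The deposited FPKM values were scaled by the authors for length and sample total. The submitters' processing notes name mm9, but the coordinates of the table are those of GRCm38. Columns of the authors' own DEGseq comparison (fold changes and p-values) were not used.

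Expected counts were rounded and fitted in R 4.3.3 with edgeR 4.0.16 (TMM scaling, filterByExpr at min.count 10 and min.total.count 15, quasi-likelihood test on genotype, Benjamini-Hochberg adjustment over 12667 genes). Standard errors were derived from F, as the absolute log2 fold change divided by its square root, and 95% intervals use the t distribution of the fit. The members and lists were chosen with earlier results of these data known. The genes named were the members, their cluster neighbours, other keratins past an adjusted p of 0.05, the 3 non-members nearest to each member, up to 4 genes per list with the smallest adjusted p, defining markers of other cell types and *Rela*. Others, such as *S100a8*, *Alox12b*, *Cd44* and *Egfr*, were named after their values were seen. A gene that this rule would name is not reported here.

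Alternatives were DESeq2 1.42.0, upper-quartile scaling, 2 other filters, limma 3.58.1 on log2(FPKM + 1) and log2(FPKM + 0.1), a block for replicate number, summed counts of near copies and each sample left out. These were applied to the gene lists only once the data had been seen. The scripts were tested on simulated data. Sequences and gene positions are from GENCODE M21 on GRCm38, and floors of 3 counts cover counting error only.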

Additional observations from a re-analysis of the deposited data

How the results depend on the processing

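No direction of any of the 5 keratins reversed under the alternatives tried. Summing near copies gave 0.3756 for *Krt6a* with *Krt6b* and 3.869 for *Krt14* with *Krt16* and *Krt17* (log2). With single samples left out in turn, the log2 fold change of *Krt16* ranged from 4.652 to 6.882 (highest without control 3), that of *Krt17* from 3.25 (without mutant 1) to 4.325. The mean share of keratin held by *Krt6a*, 6.56% in control and 8.88% in mutant mice by FPKM, was 7.44% and 10.2% by counts, which are not scaled by length.

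Genes past both thresholds, 173 in the main edgeR fit, numbered 330 with DESeq2, 114 with limma on log2(FPKM + 1) and 36 (without control 2) to 193 without a sample. Those with an adjusted p under 0.05, 1678, ranged from 857 to 1869 without a sample, and other keratins, 5, from 1 to 7. Of the gene lists, companions that rose numbered 14 with at least 10 counts in every sample, a filter that removes genes absent from the controls. Proliferation genes that rose, 5, were 8 with DESeq2 and 0 to 5 without a sample, and those that fell, 1, were 0 to 1. Basal layer genes that rose, 7, were 4 to 9 and those that fell, 1, were 0 with limma on log2(FPKM + 1) and 0 to 2 without a sample. Keratin regulators that fell, 2, were 1 with limma on log2(FPKM + 1) and 0 to 3 without a sample. Filament partners that fell, 1, were 3 with DESeq2, and those that rose, 3, were 2 to 5 without a sample. Where no reason is given, the cause was not tested.

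Same-numbered mice are not paired by the labels, and their deviations from group means correlated at 0.019, 0.0483 and -0.0464. With the replicate block, 176 genes passed both thresholds, 1419 had an adjusted p under 0.05, 5 other keratins passed (*Krt4* and *Krt75* in place of *Krt20* and *Krt23*), 9 proliferation genes rose, and *Krt16* and *Krt17* were at 5.894 and 3.832. Of the 5 keratins, *Krt17* had the fewest counts in the controls, 108 to 131.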
